A study of Mus musculus with 4 samples.

Results

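Transcripts of the factors that hold RNA polymerase II near promoters were examined in cultured B cells with and without an intact copy of Aff3. The set comprised 10 genes named by function. Of these 3 belong to the 7SK ribonucleoprotein (Hexim1, Larp7, Mepce), 2 to DSIF (Supt4a, Supt5) and 4 to the negative elongation factor NELF (Nelfa, Nelfb, Nelfcd, Nelfe), and Supt6 is a histone chaperone that travels with the polymerase. All probes for genes whose listed RefSeq transcript belongs to one of these symbols were taken, which gave 11 probes for 9 of the 10 genes, out of 39429 probes and 20145 named genes on the array. Supt4a had no such probe and is not analysed here. All 11 probes were well above background on all 4 arrays, and all 9 genes were among the 20643 features tested (genes, or unnamed probes by their own identifier).

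The cells were splenic B cells depleted of cells that carry CD43, taken from Aff3+/- or Aff3-/- mice, so that the comparison group also lacks 1 copy of Aff3 and no wild-type sample was included. Both groups received LPS (10 ug/mL), a bacterial product that makes B cells divide, together with the cytokine IL-4 (10 ng/mL) for 3 days, and n was 2 arrays per genotype. The strain, age and sex of the mice, the design of the Aff3 allele and whether the replicates came from separate mice are not given in the sources used here, so the errors measure only the spread between these samples. None of the 7 RefSeq transcripts of Aff3 was matched to a probe, so Aff3 itself is not analysed here and each direction rests on the sample labels.

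All 4 arrays lay on 1 slide and were read in 1 scan, with between 24956 and 25878 of 39429 probes well above background per array and 0 saturated gene spots. The number of arrays limits the precision. Among B cell markers, Cd79a and Cd79b were well above background on all 4 arrays, as were all 6 markers listed, and 5 of the 6 were dimmer in the Aff3-/- mean (median -0.09, log2). Of other cell types, Cd3g (T cells), Lyz2, S100a8 and S100a9 (myeloid cells), Ncr1 and Klrb1c (NK cells), Alas2 (erythroid cells) and Col3a1 (stroma) were well above background on 0 arrays. The T cell genes Cd3e and Cd3d, the myeloid genes Csf1r and Itgam, the NK gene Nkg7, the globins Hbb-bs and Hba-a1 and the endothelial and stromal genes Pecam1, Cdh5 and Col1a2 were detected on all 4. Their signals differed widely, from 6.9 to 17.4 units for Hbb-bs and 15.3 to 17.8 for Cd3d up to 8911 to 10465 for Itgam. The brightest T cell marker tested was Cd4, at 2601 to 3142 units. The medians of the tested genes were -0.01 for T cell (4 genes), -0.24 for myeloid (3), -0.06 for NK (2), +0.11 for plasma cell (5), +0.02 for erythroid (2) and -0.16 for stromal and endothelial markers (3), with 0 genes past the adjusted threshold in each. Single markers went further in either direction. T cell markers ranged from -0.11 to +1.01 (Cd8a, dim and without overlap), erythroid markers from -0.45 (Hbb-bs) to +0.49 (Hba-a1) and stromal and endothelial markers from -0.61 (Cdh5, without overlap) to +0.09. All 5 plasma cell markers had the higher mean in Aff3-/- cells, from +0.03 to +0.33 (Jchain, without overlap). Cd4, Cd8a and Jchain were named after their values were seen, and the part of these markers in the results was not tested. In bulk RNA of this kind, fewer cells of a type and less RNA per cell cannot be told apart.

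After initiation, RNA polymerase II commonly stalls a short way into a gene. DSIF and NELF bind it there and hold it, and release follows when the kinase P-TEFb (Cdk9 with a cyclin T) phosphorylates DSIF, NELF and the polymerase tail, after which NELF leaves and DSIF stays on as an elongation factor. The 7SK ribonucleoprotein keeps P-TEFb inactive until it is needed, and scaffold proteins of the AFF family, to which Aff3 belongs, hold P-TEFb in super elongation complexes. In B cells DSIF and Supt6 are also known for their part in targeting the deaminase that drives class switching. The comparison asked whether mRNAs of this machinery differ when both copies of Aff3 are lost.

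In the reported fit, which has no term for replicate number, none of the 9 pausing factor transcripts measured differed between the genotypes by more than its error. The median difference of the 9 genes was +0.05 (log2, Aff3-/- minus Aff3+/-), against -0.01 over all features, and the largest was +0.10, that of Larp7. Of the 9, 7 had the higher mean in Aff3-/- cells and 2 the lower, where 45.5% of all features were higher. With limma 0 of the 9 passed the Benjamini-Hochberg adjusted threshold of 0.05 (adjusted p = 1.00 for each), as did 0% of all features (0 of 20643, smallest adjusted p = 0.73). An unadjusted p under 0.05 was reached by 0 of the 9 and by 2.04% of all features (421), and the smallest p among the 9 was 0.54 by limma. Each of the 9 differences was smaller than its own standard error in this fit, as was the case for 80.2% of all features. With replicate number added as a block, Larp7 (+0.1011, SE 0.0753) and Nelfa (+0.0962, SE 0.0954) exceeded theirs. Neither reached an unadjusted p under 0.05 there. These signs depend on single arrays: without Aff3-/- replicate 2 only 2 of the 9 genes were higher in Aff3-/- cells (median -0.04), and without Aff3-/- replicate 1 all 9 were (median +0.12).

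The intervals set an upper bound on what could have been missed. The 95% interval of the genotype difference was taken gene by gene, without a term for replicate number and not corrected for the 9 genes. It allowed at most a 1.51-fold change for any of them (Nelfe), and for Nelfb, the tightest, at most 1.25-fold. For Nelfe the standard error was 0.22 in this fit and 0.0765 with replicate number as a block, for which no interval is given here. For 8 of the 9 genes the interval lay within 1.5-fold in either direction, as it did for 68.2% of all features. Differences smaller than these bounds could have been missed with 2 arrays per genotype. The bounds are not the smallest differences that the test could detect. Larger differences of other genes, such as Cd8a (+1.01) and Cdh5 (-0.61, log2), also did not pass the adjusted threshold. The scanner software's own error of a spot was between 8.65% and 10.0% of its signal, with the low end from the dim second Supt6 probe. For the other probes of the 9 genes it stood at 10.0% at every signal level. Taken as given, it corresponds to an error of 0.14 (log2) for a genotype difference, and all 9 differences were smaller. The fitted standard errors ranged from 0.11 to 0.22 and were below that value for some of the genes.

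**Figure D1:**
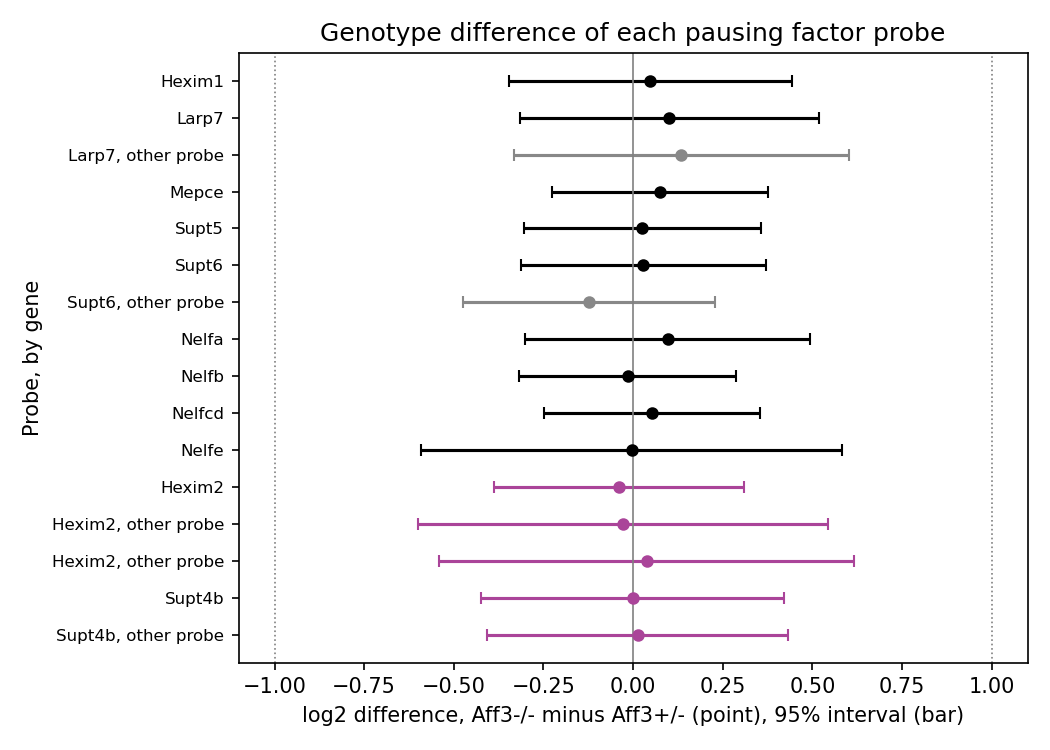
Log2 difference between Aff3-/- and Aff3+/- cells (horizontal axis) for each probe of the pausing factor genes, with the 95% interval of the limma fit as a bar, for n = 2 arrays per genotype. Black points are the probes that represent the 9 genes, grey points the other member probes, and purple points the paralogues Hexim2 and Supt4b; every bar crosses 0, and none reaches the dotted lines at a log2 difference of 1 in either direction.

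To show where these genes are read from, the 100 bases before the annotated start are given for 6 members, of which 4 (Larp7, Nelfa, Supt5 and Supt6) had an order of arrays by replicate number, described further on, that the other 2 (Hexim1 and Nelfb) did not have. RefSeq entries of the GRCm38.p6 build were found for 7 of the 10 genes, and not for Mepce, Nelfcd and Nelfe. Nelfcd and Nelfe also had that order of arrays, and a link between sequence and the order was not tested. Each window is written 5′ to 3′ on the gene's strand, with matches to the searched motifs in capitals.

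Larp7: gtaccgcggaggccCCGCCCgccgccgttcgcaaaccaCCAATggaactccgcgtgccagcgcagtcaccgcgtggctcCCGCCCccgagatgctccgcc
Nelfa: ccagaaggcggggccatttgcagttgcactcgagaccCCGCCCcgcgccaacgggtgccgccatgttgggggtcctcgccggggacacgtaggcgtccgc
Supt5: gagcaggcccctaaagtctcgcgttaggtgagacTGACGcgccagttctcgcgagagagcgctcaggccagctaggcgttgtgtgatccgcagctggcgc
Supt6: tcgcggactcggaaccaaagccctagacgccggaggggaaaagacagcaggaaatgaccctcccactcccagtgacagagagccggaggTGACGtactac
Hexim1: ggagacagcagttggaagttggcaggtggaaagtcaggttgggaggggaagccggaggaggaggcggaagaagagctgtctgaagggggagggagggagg
Nelfb: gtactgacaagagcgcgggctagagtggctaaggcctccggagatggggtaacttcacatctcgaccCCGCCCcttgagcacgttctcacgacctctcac

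The windows lie at chr3:127553350-127553449 on the minus strand for Larp7, chr5:33936272-33936371 on the minus strand for Nelfa, chr7:28338720-28338819 on the minus strand for Supt5, chr11:78245704-78245803 on the minus strand for Supt6, chr11:103116225-103116324 on the plus strand for Hexim1 and chr2:25211490-25211589 on the minus strand for Nelfb. Both strands were searched for the GC box GGGCGG, the CCAAT box CCAAT, the TATA box TATAAA, the ETS core CCGGAAG, the CRE half-site TGACG and the E-box CACGTG, of which none contains another. The GC box was in 4 of the 7 member windows (Larp7, Nelfa, Nelfb and Supt4a) and in 24.7% of all 32851 windows of that length. The CRE half-site was in 2 (Supt5 and Supt6, against 10.5% of all windows), and the CCAAT box in 1 (Larp7, against 18.9%). The ETS core was in 1 (Supt4a, whose window is not shown; 4.52% of all windows). Neither TATAAA (5.56%) nor CACGTG (3.17%) occurred in a member window. The member windows held 60% to 74% G and C, against a median of 55% over all windows, and between 2 (Hexim1) and 15 (Larp7) CpG dinucleotides against a median of 3. A match describes letters in this window, not a bound site.

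Among the 7SK ribonucleoprotein genes, Hexim1 encodes the protein that, bound to 7SK RNA, inhibits P-TEFb. Its probe (NM_138753) read 354 and 341 intensity units on the Aff3+/- arrays (replicates 1 and 2) and 328 and 387 on the Aff3-/- arrays. The 2 Aff3-/- arrays lay on either side of both Aff3+/- arrays. Relative to each array's 75th percentile the level was -1.92 ± 0.10 in Aff3+/- and -1.87 ± 0.20 in Aff3-/- cells (log2, SD, n = 2), a difference of +0.05 ± 0.15 (SE; 95% interval -0.35 to +0.44; limma adjusted p = 1.00).

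Larp7 binds the end of 7SK RNA and protects it. Its brighter probe (NM_138593) read 3289 and 4039 units in Aff3+/- and 3578 and 4212 in Aff3-/- cells. The arrays interleave, with the replicate 2 array above the replicate 1 array in each genotype. The difference was +0.10 ± 0.16 (log2, SE; 95% interval -0.32 to +0.52). The other Larp7 probe, which read 2422, 3117, 2714 and 3306 units in the same order, differed by +0.13 ± 0.18 when every probe was tested as a feature of its own, so both probes gave the same sign and the same order of arrays.

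Mepce caps the 7SK RNA with a methyl group. It read 11988 and 11991 units in Aff3+/- and 12469.5 and 12622 in Aff3-/- cells (NM_144913). On the scaled values it was the only gene of the 9 whose Aff3-/- arrays both lay above both Aff3+/- arrays. For comparison 8.35% of all features had this order and 19.5% did not overlap in either direction. The lower Aff3-/- value exceeded the higher Aff3+/- value by only 0.0058 (log2). The difference was +0.08 ± 0.11 (SE; 95% interval -0.23 to +0.38), from 3.19 ± 0.06 to 3.26 ± 0.04 (log2, SD, n = 2).

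Hexim2, the paralogue that RefSeq places next to Hexim1 and that can also inhibit P-TEFb, served as a comparison. Its 3 probes differed by -0.04, -0.03 and +0.04 (log2), each within its standard error.

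**Figure D2:**
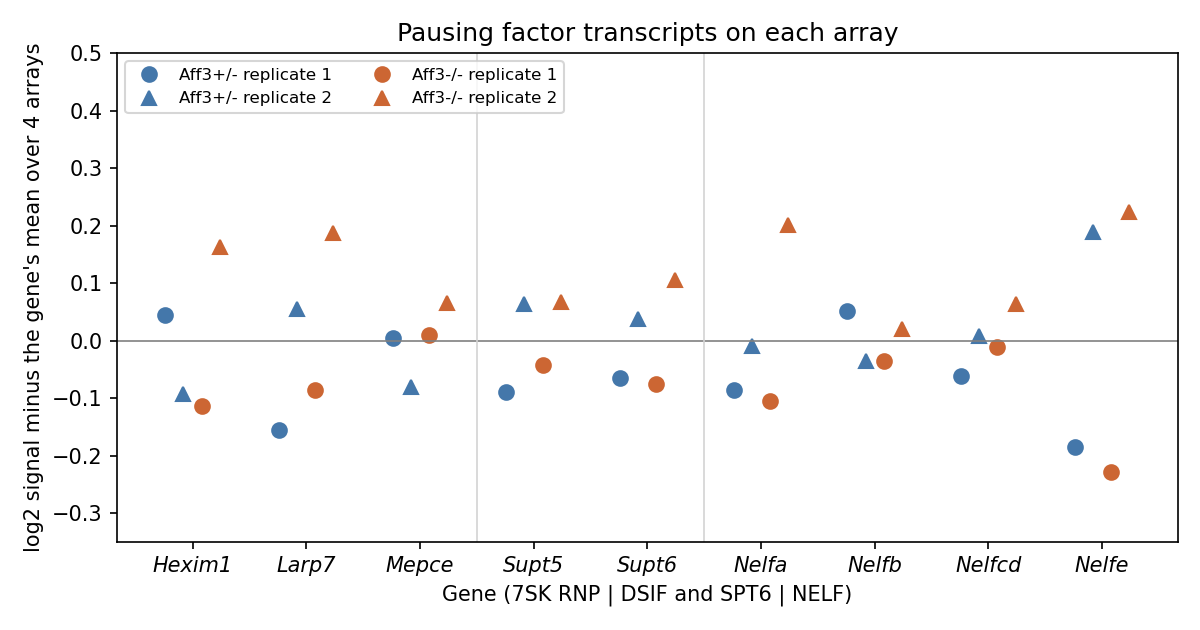
Log2 signal on each array minus the gene's own mean over the 4 arrays (vertical axis) for the 9 pausing factor genes (horizontal axis, by complex), with Aff3+/- in blue and Aff3-/- in orange, and replicate 1 as circles and replicate 2 as triangles. Colours mix for every gene but Mepce, whereas for Larp7, Supt5, Supt6, Nelfa, Nelfcd and Nelfe both triangles lie above both circles.

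In DSIF, Supt5 is the large subunit, whose repeats are the P-TEFb substrate. Its probe (NM_013676) read 19524 and 23013 units in Aff3+/- and 20903 and 21971 in Aff3-/- cells. Both Aff3-/- arrays lay between the Aff3+/- arrays before scaling, and the genotypes overlapped after it. The scaled difference was +0.03 ± 0.13 (log2, SE; 95% interval -0.31 to +0.36). Its small partner Supt4a was not measured, but the array carries 2 probes for Supt4b, a close paralogue. These differed by -0.0009 ± 0.16 for the brighter probe (95% interval -0.42 to +0.42) and +0.01 for the other. Whether they also bind Supt4a transcripts was not tested.

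Supt6 deposits histones behind the moving polymerase and binds its phosphorylated linker. Its bright probe (NM_009297) read 11885 and 13534 units in Aff3+/- and 12219.7 and 13504 in Aff3-/- cells. The genotypes overlapped, and the difference was +0.03 ± 0.13 (log2, SE; 95% interval -0.31 to +0.37). A dim second probe read 50.3, 58.3, 46.7 and 52.0 units in the same order and differed by -0.12 ± 0.13. The 2 Supt6 probes thus disagreed in sign, each within its error, and with the mean of both the gene stood at -0.05.

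NELF has 4 subunits. Nelfa is the subunit through which NELF contacts the polymerase. It read 2248 and 2514 units in Aff3+/- and 2300.0 and 2768 in Aff3-/- cells (NM_011914), with Aff3-/- replicate 2 the highest of the 4 arrays. The difference was +0.10 ± 0.15 (log2, SE; 95% interval -0.30 to +0.49). Without that array it was -0.06.

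Nelfb, also known as Cobra1, is a further subunit of the complex. It read 17244 and 17226 units in Aff3+/- and 16815 and 17049 in Aff3-/- cells (NM_021393), and the difference was -0.0155 ± 0.11 (log2, SE; 95% interval -0.32 to +0.29). Nelfcd, the subunit that pairs with Nelfa, read 22089 and 24585 units in Aff3+/- and 23687 and 24322 in Aff3-/- cells (NM_020580), with the Aff3-/- arrays between the Aff3+/- arrays before scaling and an overlap of the genotypes after it. Its difference was +0.05 ± 0.11 (95% interval -0.25 to +0.35).

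Nelfe is the subunit with an RNA recognition motif. Its probe (NM_001045864) read 5356 and 7354 units in Aff3+/- and 5383 and 7175 in Aff3-/- cells. The genotype means were 2.25 ± 0.26 and 2.25 ± 0.32 (log2, SD, n = 2), a difference of -0.0039 ± 0.22 (SE; 95% interval -0.59 to +0.58). Its spread within a genotype was the widest of the 9 genes and followed the replicate number: the arrays numbered 2 were brighter by 0.37 in Aff3+/- and by 0.45 in Aff3-/- cells. Leaving out 1 array moved the Nelfe difference anywhere from -0.23 to +0.22.

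**Figure D3:**
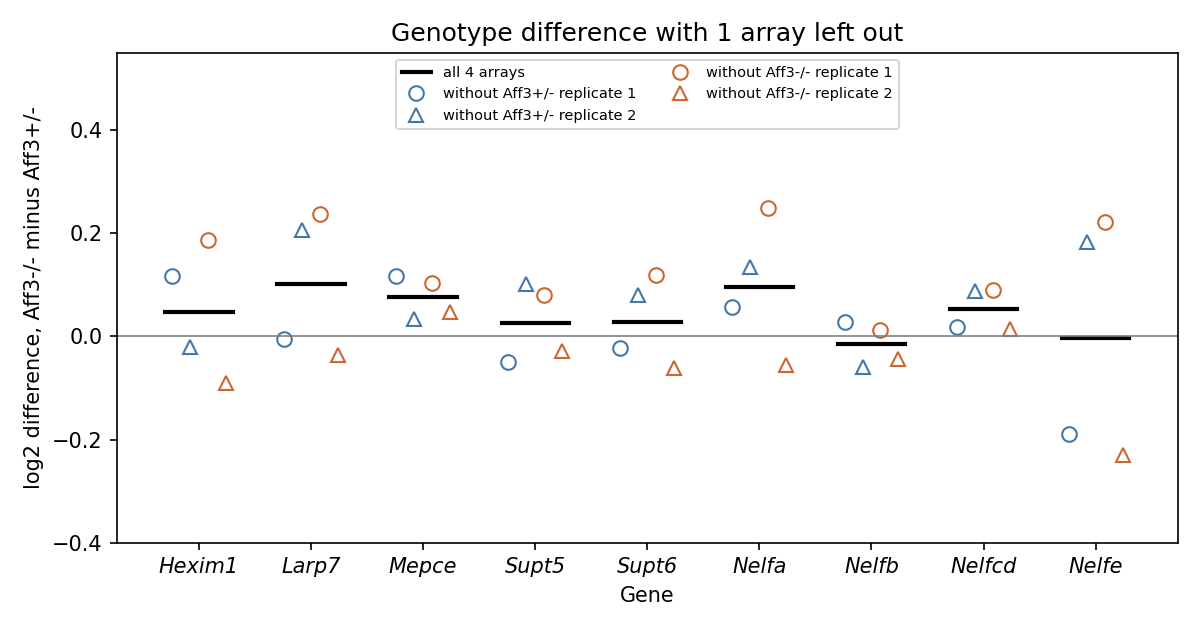
Log2 difference between Aff3-/- and Aff3+/- cells (vertical axis) for the 9 genes, from all 4 arrays (black lines) and after leaving out 1 array (open symbols, coloured by the genotype and shaped by the replicate number of the array left out). Symbols fall on both sides of 0 for every gene except Mepce and Nelfcd, and Nelfe spans -0.23 to +0.22.

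The same order of arrays was seen in other members. In 6 of the 9 genes (Larp7, Supt5, Supt6, Nelfa, Nelfcd and Nelfe) both arrays numbered 2 were brighter than both numbered 1, and in 0 was the reverse seen. Over all features these orders were found in 31.1% and 33.2%. The shift was +0.41 (log2, number 2 minus number 1) for Nelfe, +0.24 for Larp7, +0.19 for Nelfa, +0.14 for Supt6, +0.13 for Supt5 and +0.07 for Nelfcd, with a median of +0.13 over the 9 genes and -0.01 over all features. The second probes of Larp7 (+0.30) and Supt6 (+0.16) had the same order. Hexim2 (-0.15 for its brightest probe) and Supt4b (-0.25) had the opposite one, each on all of its probes. In 7 of the 9 genes the number set the arrays further apart than the genotype did, as it did in 73.3% of all features. This order was noticed after the values were seen and carries no test. With quantile normalization 5 genes had it and with normexp background correction 7.

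Cell markers moved between the same arrays. Of the 6 B cell markers 5 were dimmer on both arrays numbered 2 (mean level of the list 3.66 and 3.60 on the number 1 arrays of Aff3+/- and Aff3-/- cells, 3.46 and 3.32 on those numbered 2, log2), and so were all 3 tested myeloid markers (-0.67 and -0.89 against -1.11 and -1.28). Plasma cell markers went the way of the pausing factors, with 3 of 5 brighter on both arrays numbered 2 and 1 dimmer (1.03 and 1.18 against 1.29 and 1.38, median shift +0.13). Median shifts of the other marker lists were +0.16 for NK, -0.0051 for T cell, -0.28 for stromal and endothelial and -0.70 for erythroid markers. Over all features 31.1% were brighter on both arrays numbered 2 and 33.2% dimmer. The part of these markers in the shift of the pausing factors was not tested. Per the file headers the arrays numbered 1 lay at positions 1 and 2 of the slide and those numbered 2 at positions 3 and 4, so that number and position cannot be told apart. Within number 1 the Aff3-/- array was the brighter for 4 of the 9 genes and for 47.0% of all features, and within number 2 for 9 of the 9 and 46.0%. On both it was the brighter for 4 of the 9 and for 22.6% of all features.

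**Figure D4:**
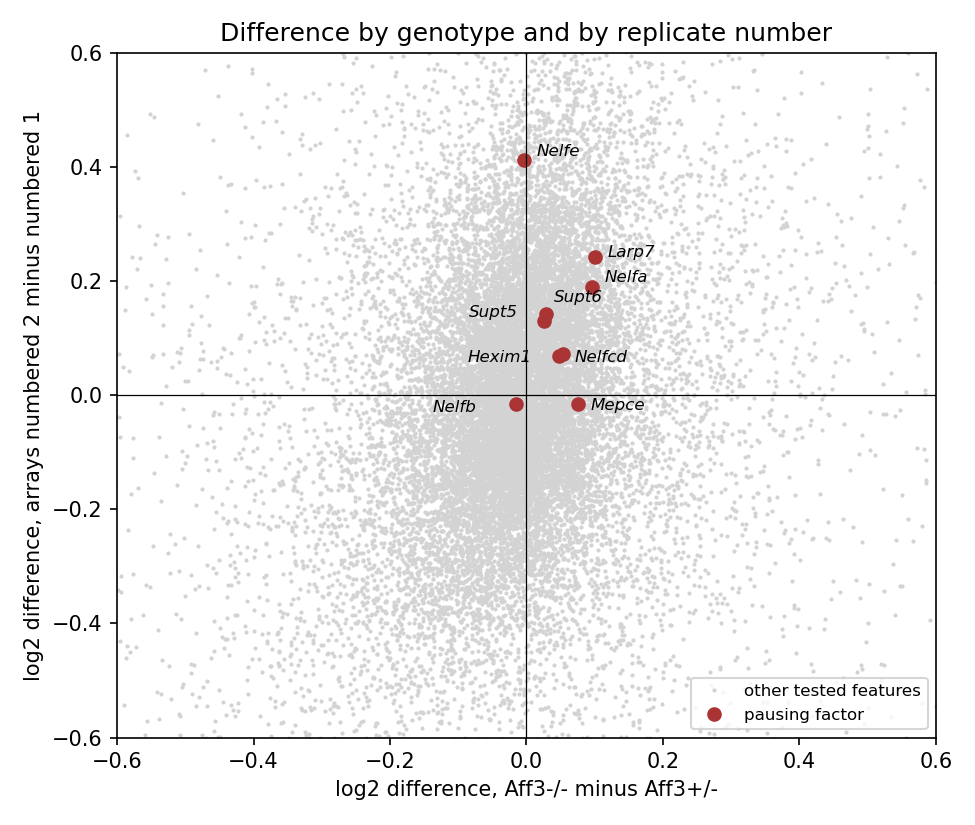
Each tested feature (grey) and the 9 pausing factor genes (red) by their log2 difference between genotypes (horizontal axis) and between arrays numbered 2 and 1 (vertical axis); the axes stop at 0.6, beyond which 1280 of 20643 features lie. The red points sit within 0.10 of 0 across, and up to 0.41 above 0 vertically, with Nelfe the highest.

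Genes that act with the pausing factors were described by 5 lists. Among P-TEFb and 7SK partners 15 of 16 genes were tested, 9 higher and 6 lower in Aff3-/- cells, with a median of +0.01 (log2) and 0 past the adjusted threshold. The 2 of smallest p were the RNA-binding protein gene Hnrnpr (+0.12 ± 0.12, SE) and Ddx21 (+0.11 ± 0.13), a helicase that can release P-TEFb from 7SK. The 7SK RNA itself, Rn7sk, was not analysed here. Of the 9 super elongation complex genes 5 were higher and 4 lower (median +0.02, 0 past the threshold). Eaf2, a partner of the ELL elongation factors, was 1.25-fold higher in mean (+0.32 ± 0.16, limma adjusted p = 1.00), with 36338 and 35103 units in Aff3+/- against 50346 and 38924 in Aff3-/- cells and no overlap. Without Aff3-/- replicate 1 it stood at +0.15, and with the mean of its probes at +0.21. The reader protein gene Mllt1 stood at +0.12 ± 0.12.

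Downstream elongation factors gave 10 of 16 higher and 6 lower (median +0.03, 0 past the threshold). The TFIIS gene Tcea1, whose product rescues backtracked polymerase, was the furthest from 0 (+0.25 ± 0.13, SE), with 2290.2 and 2633 units in Aff3+/- against 3103 and 2726 in Aff3-/- cells. Cdc73 of the PAF1 complex stood at +0.12 ± 0.19. For polymerase subunits and TFIIF, 13 of 15 genes were tested, with 8 higher and 5 lower (median +0.0068, 0 past the threshold), among them Polr2h at +0.16 ± 0.13 and Polr2b at -0.07 ± 0.12. Capping, termination and Integrator genes numbered 23 tested of 24, with 12 higher and 11 lower (median +0.0014, 0 past the threshold), and Ints10 (+0.09 ± 0.13) and Ints13 (+0.07 ± 0.11) had the smallest p. An unadjusted p under 0.05 was reached by 0 genes of each list.

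The order by replicate number was also counted in these lists, again without a test. Both arrays numbered 2 lay above both numbered 1 in 11 of 16 elongation factors, 10 of 13 polymerase genes and 16 of 23 capping, termination and Integrator genes. The reverse order was found in 4, 1 and 1 of them. Over all features the shares were 31.1% and, for the reverse, 33.2%. Median shifts were +0.17, +0.12 and +0.17 (log2). Of the P-TEFb and 7SK partners 6 of 15 were brighter on both arrays numbered 2 and 3 were dimmer. Of the super elongation complex genes 1 of 9 was brighter on both and 5 were dimmer (median -0.15).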

How the data were processed

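Per the file headers, each array was 1-colour and its spots were quantified by Agilent software (version 10.7.1.1 per the submitters' processing notes), with background taken off and spatial trends removed. The deposited scanner values are intensity units and are not scaled between arrays. Control spots and spots marked as outliers were left out. Each array's log2 processed signal was set against its own 75th percentile, which was 1278 and 1355 units in Aff3+/- cells and 1324 and 1289.9 in Aff3-/- cells. Probes entered the fit if the software marked them as well above background on each array of at least 1 genotype, and a gene was read from its brightest probe. RefSeq accessions gave symbols (GRCm38.p6 table, used for names only) to 26581 probes by transcript and 6 by synonym, and 12842 stayed unnamed. Genotypes were compared by limma 3.58.1 in R 4.3.3 (lmFit, eBayes, no term for replicate number), two-sided, with Benjamini-Hochberg adjustment over 20643 features. The fit was also run on simulated data with independent noise on each array and with changes larger than any member difference. Those data lack the order by replicate number seen here, so they do not show how the fit performs on these arrays. No probe value was identical between any arrays.

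A further deposited table holds log2 values that follow the scaled scanner values with a correlation of 1.00 once each row of both is centred on its mean. Its column medians were 0.13 and -0.03 for Aff3+/- and -0.04 and 0.02 for Aff3-/-.

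Members and gene lists were chosen with earlier results of these data known. The text names every member, the 2 genes of smallest p per pathway list and the leading markers of each cell type, some of which are not reported here; other genes were named after their values were seen. Alternatives changed the background correction, the scaling, the source of the values, the filter, how probes stand for a gene, the variance estimate and the samples used, or added a replicate block. In the normexp alternative (offset 50) the median spot signal was used in place of the mean.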

Additional observations from a re-analysis of the deposited data

How the results depend on the processing

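Over 14 alternatives 0 members and 0 features passed the adjusted threshold with limma, and 0 members reached an unadjusted p under 0.05; the lowest adjusted p of a member was 0.90. Leaving out 1 array kept these counts at 0. The median of the 9 members ranged from -0.04 to +0.12 without 1 array, and was +0.04 in the deposited values (6 members) and +0.07 with median centring. Members without overlap numbered 1 in the reported fit, 2 with normexp background correction, 2 with quantile normalization, 0 in the deposited values and 1 to 8 without 1 array, where a lone array meets the condition more easily. The shares of all features were 19.5%, 21.8%, 19.5%, 18.3% and 45.6% to 73.0% in the same order. In every row of the deposited values Aff3+/- replicate 1 lies above Aff3-/- replicate 1. Both Aff3-/- arrays therefore cannot lie above both Aff3+/- arrays there, and its count and share cover the dimmer direction only.

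Of 78 member values under alternatives that keep all arrays 4 changed sign: Nelfb was +0.0022 and Nelfe +0.0137 with median centring, Nelfe +0.0255 with normexp, and Supt6 -0.048 with the mean of its probes. Without 1 array 13 of 36 member values changed sign. The ranges were -0.090 to +0.19 for Hexim1, -0.035 to +0.24 for Larp7, -0.056 to +0.25 for Nelfa and -0.059 to +0.028 for Nelfb. They were -0.23 to +0.22 for Nelfe, -0.0501 to +0.10 for Supt5 and -0.062 to +0.12 for Supt6. Outside the members, the sign also changed for the list genes Cdc73 (-0.0525 to +0.30), Ints10 (-0.0070 to +0.18) and Polr2b (-0.15 to +0.0135). Only Mepce (+0.03 to +0.12) and Nelfcd (+0.0151 to +0.09) kept their sign throughout among the members. The other list genes kept theirs but moved widely: +0.15 to +0.49 for Eaf2, +0.0078 to +0.22 for Ddx21, +0.06 to +0.19 for Hnrnpr, +0.06 to +0.18 for Mllt1, +0.07 to +0.25 for Polr2h, +0.03 to +0.12 for Ints13 and +0.18 to +0.33 for Tcea1.

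With the replicate block the member median was +0.05, 0 members passed and the smallest member p was 0.26 by limma. Features at an unadjusted p under 0.05 rose from 421 to 1461. The differences of Larp7 (+0.1011, SE 0.0753) and Nelfa (+0.0962, SE 0.0954) were then larger than their standard errors. Deviations of same-numbered arrays from their group means correlated at 0.56 over features; with 2 pairs this does not show that the numbers pair the samples.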

Other observations

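The second deposited table, as used here, holds a selected set of probes. In all 25372 of its rows the value of Aff3+/- replicate 1 was above that of Aff3-/- replicate 1, although 62.6% of all probes on the scaled scanner values have this order. On those values the boundary was sharp: the lowest difference (Aff3+/- minus Aff3-/- replicate 1) inside the table was -0.00801 (log2) and the highest among the 14104 probes outside it was -0.00803. Replicate 2 did not follow, since its Aff3+/- array was the brighter for 40.7% of the probes inside and 51.1% of those outside. The table's scaling differed slightly from that used here: its Aff3+/- minus Aff3-/- difference was larger by 0.0080 (log2) for replicate 1 and differed by -0.0075 for replicate 2, the same for every shared probe. Larp7 (both probes), Supt5 and Nelfcd, each brighter on Aff3-/- than on Aff3+/- replicate 1 by more than 0.0080, are not among its rows, and 7 of the 11 member probes are. Mepce, brighter there by only 0.0058 on the scaling used here, is in the table with the reverse order, and its genotypes overlap in those values. For the 6 members it holds, the genotype difference changed by at most 0.0002 (log2). Over its features the median difference was -0.07, against -0.01 over all features tested, and a shift of a gene list read from this table includes that selection.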
